A study of Mus musculus with 2 samples.

Results

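Hoxa13 and Hoxb13 are the Hox genes at the 5' ends of the Hoxa and Hoxb clusters of the mouse. They were selected on the assignment of peaks to gene symbols in a deposited list of macroH2A1 peaks from mouse embryonic stem cells, where they are the only Hox symbols with an assigned peak. They hold 3 of the 2560 peaks in the list, 1 at Hoxa13 and 2 at Hoxb13, and are 2 of the 39 Hox genes. The peaks come from a single chromatin immunoprecipitation and sequencing (ChIP-seq) library of untreated E14 cells, an established embryonic stem cell line grown with leukemia inhibitory factor, made with an antibody raised against part of mouse macroH2A1. The series also has 1 library made from the same cell line with non-specific IgG, of which no values were analysed here. There are no replicates, the list has no read counts or scores, and neither library's depth is known, so every value below describes 1 peak list and none has an error between cultures. The list holds no expression values, so the identity of the cells could not be checked against marker genes.

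MacroH2A1 is a histone H2A variant that carries a large additional macro domain and is known from the inactive X chromosome, from heterochromatin and from repressed developmental genes. Hox genes encode homeodomain transcription factors that pattern the body axis, and their order along each cluster follows the order in which they are used in time and along the axis. Genes of paralog group 13 stand at the 5' end and are used last and most posteriorly. Hoxa13 is needed for the digits, the genital tubercle and the hindgut. Hoxb13 is known from the tail end of the embryo and from the prostate and distal colon, and it stands apart from the rest of its cluster. In embryonic stem cells the Hox clusters are a classic target of Polycomb repression.

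The peak at Hoxa13 (ENSMUSG00000038203) lay on chromosome 6 at chr6:52206450-52208400 in mm9 and was 1951 bp wide. The gene model in the list runs from 52208852 to 52210796 on the minus strand, so the peak lay just past the 3' end of the gene. Its nearer edge was 452 bp beyond the annotated gene end and 2.40 kb from the gene start, and its farther edge was 4.35 kb from the start. In the gene order of the RefSeq table this is the side that faces Hoxa11 and the rest of the Hoxa cluster. No peak was assigned to the outer side of Hoxa13, towards Evx1, a homeobox gene beside the cluster.

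Hoxb13 (ENSMUSG00000049604, chromosome 11, 96055697 to 96058759, plus strand) had a peak on each side. The upstream peak, chr11:96051900-96054250, was 2351 bp wide and ended 1.45 kb before the gene start, on the outer side that faces Ttll6, a gene for a tubulin-modifying enzyme. The downstream peak, chr11:96062300-96064050, was 1751 bp wide and began 3.54 kb past the gene end, 6.60 kb from the start, on the side that faces Hoxb9. The gene itself was left uncovered. The pair were 8.05 kb apart and spanned 12.15 kb with the gene between them, and their summed width was 4102 bp.

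**Figure D1:**
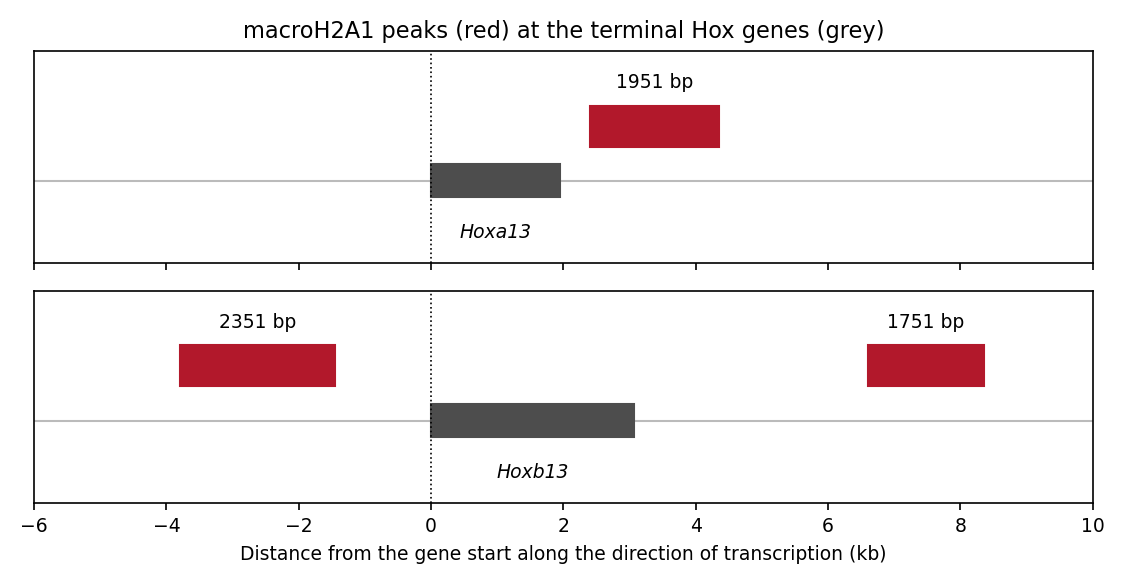
Peaks (red boxes, labelled with their width) and gene bodies (grey) at Hoxa13 (top) and Hoxb13 (bottom), plotted as distance in kb from the gene start along the direction of transcription. Neither gene start is covered: the Hoxa13 peak begins 2.40 kb downstream of it, and the Hoxb13 peaks lie 1.45 kb upstream and 6.60 kb downstream.

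None of the 3 peaks overlapped its gene or covered a gene start. Such positions were common in the list: of 2560 peaks, the authors class 1316 as upstream and 834 as downstream of their gene. The distance from the gene end depends on the gene model: the deposited models are 1945 bp long for Hoxa13 and 3063 bp long for Hoxb13, whereas the RefSeq entries of the same genes are 2028 bp and 2295 bp long. These are also the values by which the genes were chosen, since a peak enters under a symbol only through the nearest gene start, and they are given without a test.

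Distances of the Hoxa13 peak from the gene start use the deposited gene model, whose length differs from that of the RefSeq entry. The 250 bases before the RefSeq start of Hoxa13 are shown because the peak does not reach the gene start. They are set beside those of Hoxd13, a group 13 paralog with no peak, and of Hoxa11, the neighbour on the side of the Hoxa13 peak. The sequences are from RefSeq and run 5' to 3'. Their build is GRCm38.p6, which is not that of the peaks: Hoxa13 at chr6:52260881-52261130 (minus strand), Hoxd13 at chr2:74667975-74668224 (plus strand) and Hoxa11 at chr6:52245811-52246060 (minus strand). Capitals mark matches, on either strand, to GGGCGG (the GC box), CCAAT (the CCAAT box) and TATAAA (the TATA box). Adjacent matches can overlap, so a run of capitals may hold several.
Hoxa13: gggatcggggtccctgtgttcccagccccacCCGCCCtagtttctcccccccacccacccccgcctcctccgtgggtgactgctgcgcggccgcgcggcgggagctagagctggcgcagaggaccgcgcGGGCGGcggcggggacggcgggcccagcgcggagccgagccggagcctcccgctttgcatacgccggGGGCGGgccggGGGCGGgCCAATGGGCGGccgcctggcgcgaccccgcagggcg
Hoxd13: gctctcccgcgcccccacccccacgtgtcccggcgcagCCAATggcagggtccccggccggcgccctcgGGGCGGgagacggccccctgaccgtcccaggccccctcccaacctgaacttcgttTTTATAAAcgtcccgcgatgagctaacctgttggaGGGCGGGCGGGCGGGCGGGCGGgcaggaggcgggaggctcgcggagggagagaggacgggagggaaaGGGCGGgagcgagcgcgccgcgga
Hoxa11: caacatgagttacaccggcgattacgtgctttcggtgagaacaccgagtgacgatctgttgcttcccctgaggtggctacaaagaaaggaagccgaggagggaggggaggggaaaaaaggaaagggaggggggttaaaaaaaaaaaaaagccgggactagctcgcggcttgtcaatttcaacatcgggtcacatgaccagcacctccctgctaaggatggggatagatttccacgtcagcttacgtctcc

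The Hoxa13 window was 80.0% G or C and held 35 CpG dinucleotides, against a median of 6 over the 32851 windows of the table, of which 2.58% held more. It was the highest count among the 24 windows of 22 Hox genes in the table, which ranged from 2 to 35 with a median of 12.5. The Hoxd13 window held 31 CpG dinucleotides and the Hoxa11 window 13. GGGCGG was found 5 times before Hoxa13, 7 times before Hoxd13 and not before Hoxa11, and 32.7% of all windows hold it at least once. CCAAT was found once each before Hoxa13 and Hoxd13, and in 33.9% of all windows, while TATAAA matched only in the Hoxd13 window of these 3 (12.4% of all windows). CpG-rich sequence stood before a terminal Hox gene with a peak nearby (Hoxa13) and before another with none (Hoxd13). Hoxb13 had no window, so it is not part of this comparison. These matches describe letters in a window outside the peaks, and the sequence under the peaks themselves was not analysed here.

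The 3 peaks were wider than the list median of 1551 bp. All but the downstream peak of Hoxb13 also exceeded the interquartile range of 1301 to 1814 bp. The upstream peak of Hoxb13, at 2351 bp, was wider than 96.5% of the 2560 peaks, with 82 wider ones in all and 6 among the 141 peaks of chromosome 11. The Hoxa13 peak, at 1951 bp, was wider than 81.6% of the list, and 14 of the 112 peaks of chromosome 6 exceeded it. The downstream peak of Hoxb13 was wider than 66.1%, inside the interquartile range. All starts and ends in the list lie on multiples of 50 bp, so many peaks tie in width: 83 peaks in the list have the width of the Hoxa13 peak.

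They were also close to their gene starts. The median distance over the list was 32.2 kb, and 15.0% of peaks (383) lay within 5 kb. Closer peaks made up 5.86% of the list for the upstream peak of Hoxb13, 8.32% for the Hoxa13 peak and 17.8% for the downstream peak of Hoxb13. Among the 1316 peaks that the authors class as upstream, 80 ended closer to their gene than the Hoxb13 peak did. Among the 834 classed as downstream, 10 lay closer to the gene edge than the Hoxa13 peak and 66 closer than the Hoxb13 peak, and the class median was 39.9 kb. Peaks starting within 1 kb of a gene end, as at Hoxa13, made up 2.88% of the downstream class (24 peaks). Both members are genes with a symbol. Among the 410 downstream peaks of such genes the median was 28.9 kb, and 14 (3.4%) lay within 1 kb. Of these 410, 5 lay as close to the gene edge as the Hoxa13 peak or closer, itself included.

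**Figure D2:**
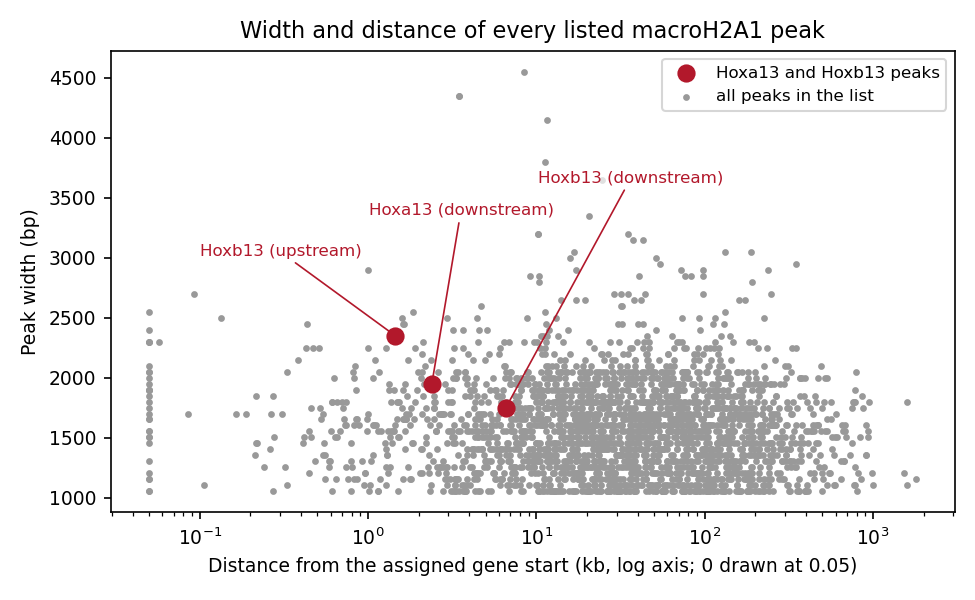
Width in bp against distance from the assigned gene start in kb (log axis, with covered starts drawn at 0.05 kb) for the 3 peaks of Hoxa13 and Hoxb13 (red) and all 2560 listed peaks (grey points). The 3 red points sit left of most grey points, at 1.45, 2.40 and 6.60 kb against a median of 32.2 kb over the list, and above the median width of 1551 bp.

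The other Hox genes were without an assigned peak. Over the 39 Hox genes, 2 had a peak (5.13%, exact Clopper-Pearson 95% interval 0.627 to 17.3%), against 6.13% of 21631 protein-coding genes (1325 genes; 6.16% where symbols may match on any chromosome, which leaves 2 of 39 Hox genes). The share of Hox genes with any peak was thus near the background. The interval covers counting only and treats neighbouring genes as independent, which genes of a cluster are not. Within 5 kb of the gene start the numbers were 2 of 39 Hox genes (5.13%) against 1.15% of all genes (248). With peaks of at least the median width they were 2 of 39 (5.13%) against 3.53% (763). These limits lower only the background, because each of the 2 picked genes has a peak that passes both. The contrasts therefore do not show an excess among Hox genes. No test was made, because the genes were picked for having a peak.

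By cluster, 1 of 11 Hoxa genes, 1 of 10 Hoxb genes, 0 of 9 Hoxc genes and 0 of 9 Hoxd genes had a peak. Both genes with a peak belong to paralog group 13, while the other members of that group, Hoxc13, known from hair and nails, and Hoxd13, a partner of Hoxa13 in digit formation, had none. A gene without a row had no region past the caller's threshold that was assigned to it, and this does not show that macroH2A1 was absent there.

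**Figure D3:**
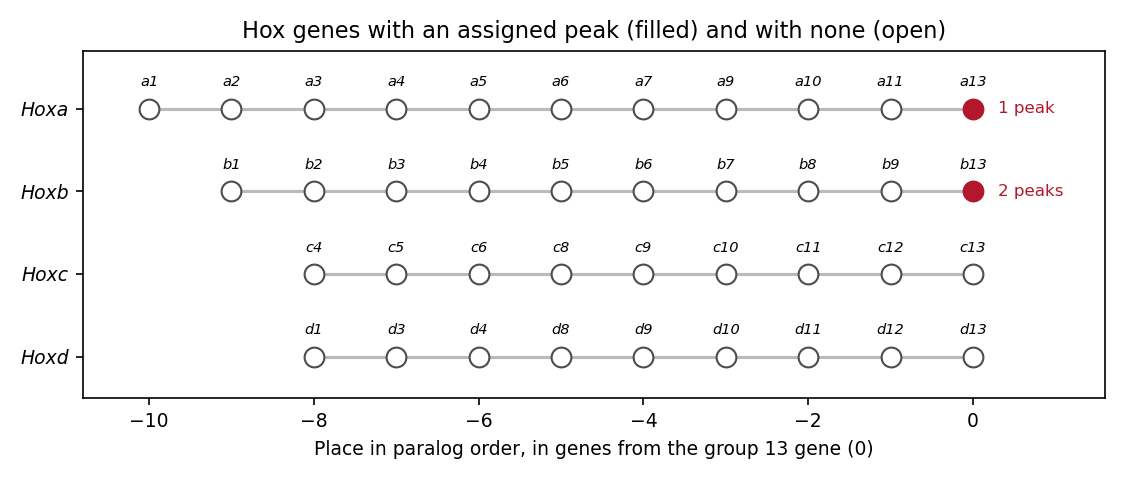
The 39 Hox genes in 4 rows by cluster, placed in paralog order with the group 13 gene at 0, filled red where a macroH2A1 peak was assigned and open where none was. The filled genes are Hoxa13 with 1 peak and Hoxb13 with 2, each at the end of its row, and every Hoxc and Hoxd gene is open.

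The Hoxa13 peak stood alone over a long stretch. It was the only peak within 300 kb of the gene start, and the next peak on the outer side was 460 kb away, inside Tax1bp1, an autophagy adaptor gene (chromosome 6, 52668000 to 52669400, 1401 bp wide). On the side of the cluster the next peak was 3.66 Mb away, 0.74 kb upstream of the start of the zinc finger gene Repin1 (48541550 to 48543150). Between the Repin1 gene and Hoxa13 the RefSeq table places 46 protein-coding genes. Among them are the 10 other Hoxa genes and the cluster neighbours Skap2 and Snx10. None has a peak by construction, since the stretch ends at the next gene with a peak. It is therefore not set against the 6.13% of all protein-coding genes with a peak. This 3.66 Mb gap was the 103rd widest of the 2538 gaps between neighbouring peaks in the list, with 4.06% as wide or wider, and the 10th widest of 111 on chromosome 6. The median gap was 490 kb, close to the 460 kb on the outer side.

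Hoxb13 showed the same order of sides, with a long gap towards the cluster and nearer peaks outside it. Within 300 kb of its start lay its own pair of peaks and 1 other, at 170 kb on the outer side, which ended 459 bp upstream of Gip, the gene of an incretin hormone (chromosome 11, 95883650 to 95885400, 1751 bp wide). Just beyond the 300 kb limit, at 384 and 396 kb, were a pair of peaks upstream of Phospho1, a phosphatase gene of bone mineralisation, and at 656 kb a peak upstream of Nxph3, a neurexophilin gene. On the side of the cluster the next peak was 2.43 Mb away, inside the gasdermin gene Gsdma3 (98496950 to 98498700). The RefSeq table places 66 protein-coding genes between Hoxb13 and Gsdma3, among them the 9 other Hoxb genes and Skap1. None has a peak by construction, since the stretch ends at the next gene with a peak. The 2.43 Mb gap was the 246th widest of 2538 (9.69% as wide or wider) and the 12th widest of 140 on chromosome 11. On the outer side 5 protein-coding genes, Ttll6, Calcoco2, Atp5g1, Ube2z and Snf8, lie between Hoxb13 and Gip, again without a peak by construction.

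**Figure D4:**
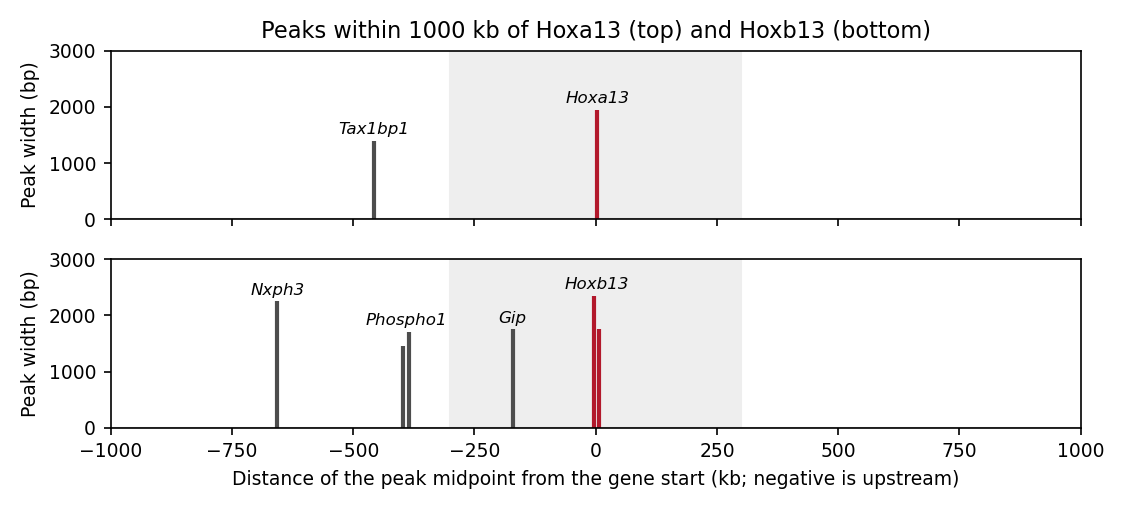
Peaks within 1000 kb of the gene starts of Hoxa13 (top) and Hoxb13 (bottom), as vertical lines at the distance in kb of the midpoint from the start (negative is upstream, away from the cluster), with height giving the width in bp. Red lines are the peaks of Hoxa13 and Hoxb13, grey lines those of other genes, and the shaded band is the 300 kb window. In both panels no line stands to the right of the red ones, on the side of the other Hox genes.

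Close pairs of peaks like that at Hoxb13 were a small share of the list. Of 2558 distinct regions, 146 (5.71%) had another region within 8.05 kb, the spacing of the Hoxb13 pair, and the median distance to the nearest region was 225 kb. Regions with no other within 300 kb, as at Hoxa13, were common (1077, 42.1%). A gene with 1 peak cannot have peaks on both sides, and 1190 genes besides Hoxa13 had only 1 peak. Of 1388 genes matched by symbol, 1 had a peak outside the gene on each side within 5 kb of its edges, and it was Hoxb13. With a limit of 10 kb there were 2, Hoxb13 and Rax, a homeobox gene of eye development. These limits were chosen after the values were seen, and the counts are descriptions.

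The ends of the Hoxc and Hoxd clusters looked different in the list. On chromosome 15 the last listed peak lay 436 bp upstream of the start of Sp7, a transcription factor gene of bone formation (102197200 to 102199650, 2451 bp wide). The 9 Hoxc genes come after it in gene order, past 10 other protein-coding genes, with Hoxc13 first, and no peak was listed from there to the end of the chromosome. On chromosome 2 the nearest gene with a peak outside Hoxd13 was Lnpk, with only Evx2 between them, but that peak lay on the far side of Lnpk, 59.3 kb past its 3' end (74292050 to 74293550, 1501 bp wide). The first peak above the start of Lnpk, on the side of the Hoxd cluster, was 688 kb away (75104900 to 75106150) and was assigned to a gene without a symbol whose start was 74.6 kb from it. The list gives no mm9 coordinates for the Hoxc and Hoxd genes, so distances from them were not computed. Of the 11 listed neighbours of the Hox clusters that could be measured, 1 had a peak, Lnpk (9.09%, against 6.13% of all protein-coding genes). The neighbours were also listed with earlier results of these data known.

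Other genes were looked up for their links to Hox genes. Meis2, which encodes a homeodomain partner of Hox proteins, had a peak of 2801 bp inside the gene, 192 kb from its start. The Cdx genes, which act upstream of posterior Hox genes, had none. Among Polycomb genes, the peak of Jarid2 was distant, 133 kb upstream, and that of Cbx8, 1201 bp wide, ended 4.62 kb before the gene start. Of 36 other clustered homeobox genes, 2 had a peak (5.56% against the 6.13% background): Six6, with 1 inside the gene 2.47 kb from its start, and Mnx1, with 1 downstream, 2.35 kb past its end. Evx1 and Evx2, which adjoin Hoxa13 and Hoxd13, had none. Of 9 limb and urogenital genes known from work on group 13 genes, 2 had a peak (22.2% against the 6.13% background), Bmp7 and Shh. Bmp7, a signalling gene bound by Hoxa13 in the limb bud, had a pair 97.2 and 104 kb from its start. Shh had 1 across its 3' end, 9.09 kb from the start. Within 5 kb of the start, 1 of the 36 clustered homeobox genes and 0 of the 9 limb and urogenital genes had a peak, against 1.15% of all genes. No test was made of these lists, whose genes are few and were chosen with earlier results of these data known. A share above the background in such a list therefore does not show an excess.

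The genes whose peaks were most like those of Hoxa13 and Hoxb13 were ranked by the summed absolute log2 ratios of distance from the start and of width. Among 1190 other genes with 1 peak, the first for Hoxa13 were Pgc (a stomach protease precursor; 2.44 kb, 1951 bp), Nkx2-3 (a homeobox gene of gut and spleen; 2.47 kb, 1851 bp) and H2-Ea (a class II histocompatibility gene; 2.16 kb, 1951 bp), with sums of 0.03, 0.12 and 0.15. All 3 peaks lay upstream of their gene, unlike the downstream peak of Hoxa13. For Hoxb13, among 45 other genes with a peak midpoint on each side of the start, the first were Cd82 (a tetraspanin gene), Rax and Bsph1 (a sperm protein gene), with sums of 2.33, 2.71 and 3.18. Of these, Rax had its pair outside the gene as Hoxb13 did, 3.76 kb upstream and 14.1 kb downstream of the start, with widths of 2051 and 1801 bp.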

How the data were processed

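Chromatin from E14 cells was immunoprecipitated with an antibody against macroH2A1 (1 library) or with IgG (1 library). Reads were mapped with Bowtie to NCBIM37 (mm9), per the submitters' processing notes. The authors deposited a list of 2560 macroH2A1 peaks. Peak names begin with CCAT, a peak caller, and the columns are laid out as by ChIPpeakAnno, with each peak assigned to the nearest gene start, per the file headers. For the caller, its version, threshold and control were not given in the sources used here. A threshold leaves weaker regions unlisted. The header is offset by 1 cell and was read accordingly: width equals end minus start plus 1 in all 2560 rows.

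Distances run from the gene start to the nearest peak base, and the window was 300 kb each side. Symbols were matched on the same chromosome to RefSeq genes of GRCm38.p6 (1388 of 1407 entries), used for names and gene order, with 21631 protein-coding genes as background. For 892 peaks (34.8%) no usable symbol was given. Promoter sequences are RefSeq's, in GRCm38.p6, and the table used had none matched to Hoxb13. Genes named were the members, all Hox genes, cluster neighbours, genes of peaks in the window, the nearest genes with a peak beside each cluster, listed genes with a peak (some are not reported here, nor the counts of their lists), and the 3 genes most like each member. The members and lists were chosen with earlier results of these data known. Functions were tested on simulated data. Python 3.11.15, pandas 2.3.3, numpy 2.4.6, scipy 1.17.1 and matplotlib 3.10.9 were used. Alternatives were other windows, distance measures, a minimum width and symbols matched on any chromosome.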

Additional observations from a re-analysis of the deposited data

How the results depend on the processing

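Hoxa13 and Hoxb13 were the 2 Hox genes with a peak in each of the 3 alternatives tried: peaks within 5 kb of the start, peaks of at least the median width, and symbols matched on any chromosome. The limits on distance and width only remove peaks, and both genes have a peak that passes them. Their result was therefore fixed in advance and is no check. The background share was 1.15% within 5 kb and 3.53% with peaks of at least the median width, both lower by construction, since fewer peaks are counted. Within 1000 kb the number of peaks was 2 around Hoxa13 and 6 around Hoxb13, and within 100 kb 1 and 2. Measured to the peak midpoint, the distances were 3.37 kb for the Hoxa13 peak and 2.62 and 7.48 kb for the upstream and downstream peaks of Hoxb13. With the deposited distances, which end at the lower peak coordinate, they were 4.35 and 3.80 kb for the Hoxa13 peak and the upstream Hoxb13 peak, and 6.60 kb, the same, for the downstream one. No paired analysis was possible because there is 1 library per group. Whether the peaks were called against the IgG library is unknown. The depth of the libraries is unknown, and a region under the caller's threshold cannot be told from one without signal.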
